A study of Mus musculus with 4 samples.

Results

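Car2, Ide, Ahnak, Slc15a2, Adgre1 and Smad1 are 6 genes whose reads were much lower in activated mouse B cells labelled as lacking the RNA-editing enzyme ADAR1 than in wild-type B cells. They were chosen by their low values in the knockout columns of these same data and taken by gene symbol, so their difference between genotypes is given as a description, with no test. They are 6 of the 55401 genes in the deposited table, and all 6 were among the 14180 genes with enough reads to be tested.

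The study measured poly(A) RNA by sequencing in 4 libraries of splenic B cells from C57BL/6 mice, 2 labelled wild type and 2 labelled as an Adar1 B-cell conditional knockout (cKO). Cells of both genotypes were grown for 36 hours with 1 μg/ml anti-CD40, which stands in for T-cell help, and 10 μg/ml anti-IgM, which cross-links the B-cell receptor. The sources used here give neither the mice's age nor the Cre line nor the deleted exons. The labels do not say that libraries of a group came from separate mice, so every p-value below measures only the spread between these libraries, which may be technical. The kit used does not keep the strand of the transcript.

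Adar, the targeted gene (ENSMUSG00000027951, GRCm38 chromosome 3, 89715022 to 89753446), stood at 137 and 149.97 CPM (read counts scaled to a common library size, with TMM factors) in wild-type libraries 1 and 2. It stood at 218 and 233 CPM in cKO libraries 1 and 2. Its gene-level reads were higher, not lower, under the cKO label (log2 change 0.65 ± 0.063 SE, adjusted p = 3.39e-08, Benjamini-Hochberg adjustment over all tested genes, quasi-likelihood test of edgeR). A count over the whole gene does not show whether a deleted part is missing, and the libraries are called cKO-labelled below. Library totals lay between 17327480 and 19669651 counts, and 1 count was worth 0.0508 to 0.0577 CPM before the TMM factors were applied. At an adjusted p under 0.05, 1727 genes were called higher and 1353 lower in the cKO-labelled libraries, 21.7% of those tested. The median log2 change over all tested genes was -0.01. Ribosomal RNA rows took 0.525% of the counts in wild-type library 2 and 0.0947% to 0.125% in the others, and leaving them out changed no member's direction. B-cell genes were abundant in every library: Cd79a, a part of the B-cell receptor, averaged 640.2 FPKM (the authors' read count scaled by exon length and library total) in wild type and 506 in cKO-labelled cells.

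The 6 proteins do unlike work. Car2 encodes carbonic anhydrase 2, a cytosolic enzyme that interconverts carbon dioxide and bicarbonate, and Ide encodes insulin-degrading enzyme, a zinc metalloprotease that cuts insulin and other short peptides. Ahnak encodes a very large scaffold protein found near the plasma membrane, where it binds annexin A2 with S100A10 and, in T cells, calcium channel subunits. Slc15a2 encodes PEPT2, which carries di- and tripeptides into cells with protons. Adgre1 encodes F4/80, an adhesion G protein-coupled receptor used as a surface marker of mouse macrophages, and Smad1 encodes a transcription factor that bone morphogenetic protein (BMP) receptors phosphorylate.

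All 6 genes were lower in both cKO-labelled libraries than in both wild-type libraries. The same held for 28.7% of all tested genes, and 9.54% of them were called lower, but nothing is read from the members' count because the rule used that contrast. Added together, the members gave 727 and 736 CPM in wild type, against 289 and 293 CPM under the cKO label. Of 10175 genes whose mean reached 5 CPM, Slc15a2 had the 4th largest fall, Adgre1 the 6th, Smad1 the 8th, Car2 the 10th, Ide the 17th and Ahnak the 19th. The genes next in that order after Ahnak (log2 change -1.20) were Csrp2 (-1.20) and Ptprs (-1.17), and the gene just before it was Bnip3 (-1.20). These places depend on the floor of 5 CPM. Over all tested genes, 20 fell more than Slc15a2, 51 more than Adgre1 and 74 more than Smad1. Without the floor, 82 fell more than Car2, 119 more than Ide and 136 more than Ahnak.

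**Figure D1:**
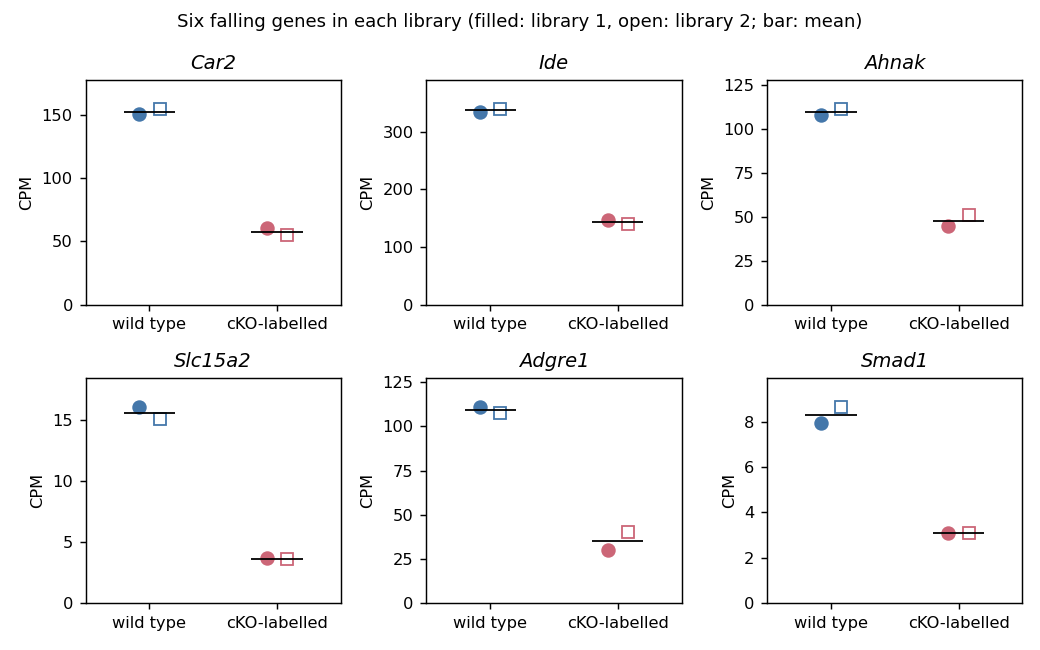
CPM (vertical axes, linear and starting at 0) of the 6 genes, 1 panel per gene, in wild-type (blue) and cKO-labelled (red) cells, with filled circles for library 1, open squares for library 2 and a bar at each group mean. In every gene both cKO-labelled points lie below both wild-type points, and the points of a group sit close together except in Adgre1, whose cKO-labelled libraries read 30.3 and 40.3 CPM.

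Slc15a2 (ENSMUSG00000022899, chromosome 16, 36750177 to 36784962, minus strand) showed the largest change of the 6. Wild-type libraries 1 and 2 held 276 and 297 of its counts, cKO-labelled libraries 1 and 2 held 66 and 63, and the 4 values in CPM were 16.02, 15.1, 3.66 and 3.61. The groups did not overlap, and the libraries of each group lay close together. The wild-type mean was 15.6 ± 0.646 CPM (SD, n = 2) and the cKO-labelled mean 3.64 ± 0.0386 CPM (SD, n = 2), 4.27-fold lower (log2 change -2.09), so that 23.4% of the wild-type level remained. The 4 ratios between a cKO-labelled and a wild-type library ran from 4.12-fold to 4.44-fold lower.

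Adgre1 (ENSMUSG00000004730, chromosome 17, 57358691 to 57483527, plus strand) read 111 and 108 CPM in wild-type libraries 1 and 2, against 30.3 and 40.3 CPM under the cKO label. It was the member whose cKO-labelled libraries differed most, by 0.41 on the log2 scale, and library 2 was the higher. Among 2331 genes of like abundance (mean CPM within 0.5 on the log2 scale), 0.343% had a larger gap between the cKO-labelled libraries. Its wild-type mean was 109 ± 2.29 CPM, against 35.3 ± 7.13 CPM under the cKO label (SD, n = 2 each), 3.09-fold lower (log2 change -1.63). Over the 4 pairs of libraries the fall ran from 2.67-fold to 3.66-fold, each larger than the gap within either group.

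Smad1 (ENSMUSG00000031681, chromosome 8, 79338395 to 79399518, minus strand) rested on the fewest reads, with 137 and 170 counts in the wild-type pair and only 56 and 54 in the other. These are 7.95, 8.65, 3.11 and 3.09 CPM, again without overlap. Its wild-type mean was 8.30 ± 0.491 CPM, against 3.10 ± 0.0106 CPM under the cKO label (SD, n = 2 each), 2.67-fold lower (log2 change -1.42), and the 4 pairwise ratios lay between 2.56-fold and 2.79-fold. The cKO-labelled libraries of Smad1 and Slc15a2 were closer to each other than those of most genes of like abundance: 98.0% of 1051 such genes had a larger gap than Smad1, and 92.2% of 1231 had a larger gap than Slc15a2. With 54 to 66 counts in these libraries, counting error is large relative to the level, and nothing is read from this closeness.

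Car2 (ENSMUSG00000027562, chromosome 3, 14886273 to 14900770, plus strand) read 150.3 and 154 CPM in the wild-type pair, against 60.4 and 54.8 CPM under the cKO label. Both cKO-labelled values lay well under both wild-type values. The means were 152 ± 2.89 and 57.6 ± 3.98 CPM (SD, n = 2 each), a 2.64-fold lower level (log2 change -1.40; 2.49-fold to 2.82-fold over the pairs of libraries). Ide (ENSMUSG00000056999, chromosome 19, 37268743 to 37337852, minus strand) had the most reads, 5762 and 6674 counts for wild type against 2645 and 2442 under the cKO label. In CPM it stood at 334, 339, 147 and 139.9, so the groups lay far apart and the replicates close together. Its means were 337 ± 3.54 and 143 ± 4.90 CPM (SD, n = 2 each), 2.35-fold lower (log2 change -1.23; 2.28-fold to 2.43-fold over the pairs).

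Ahnak (ENSMUSG00000069833, chromosome 19, 8989284 to 9076914, plus strand) had the smallest change of the 6. Its 4 values were 108 and 111 CPM for wild type, then 44.9 and 50.9 CPM under the cKO label, without overlap. The means were 109.7 ± 2.42 and 47.9 ± 4.26 CPM (SD, n = 2 each), 2.29-fold lower (log2 change -1.20), with 2.12-fold to 2.48-fold over the pairs of libraries. Of the cKO-labelled libraries, library 2 was the higher for Ahnak and Adgre1 and the lower for Car2 and Ide, and this difference was not tested.

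Levels of different genes can be set against each other only per length, and on the FPKM scale the order changed. In wild type the order was Car2 (61.7 and 63.7 FPKM), Ide (44.3 and 45.2), Adgre1 (34.0 and 33.2), Ahnak (5.39 and 5.59), Slc15a2 (2.16 and 2.05) and Smad1 (1.26 and 1.38), and no neighbours in it overlapped. Ahnak and Adgre1 have nearly equal CPM in wild type, yet Ahnak's FPKM is far the lower because its exons cover 19938 bases against 3238 for Adgre1. In cKO-labelled cells the first 4 kept their order, at 25.0 and 22.6 FPKM for Car2, 19.6 and 18.6 for Ide, 9.35 and 12.5 for Adgre1 and 2.25 and 2.55 for Ahnak. Slc15a2 and Smad1 could no longer be told apart there, each at 0.50 and 0.49 FPKM. Ranked by FPKM among all tested genes, Car2 went from the 94.2nd to the 82.2nd percentile, Adgre1 from the 88.0th to the 65.0th and Slc15a2 from the 30.4th to the 11.9th.

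**Figure D2:**
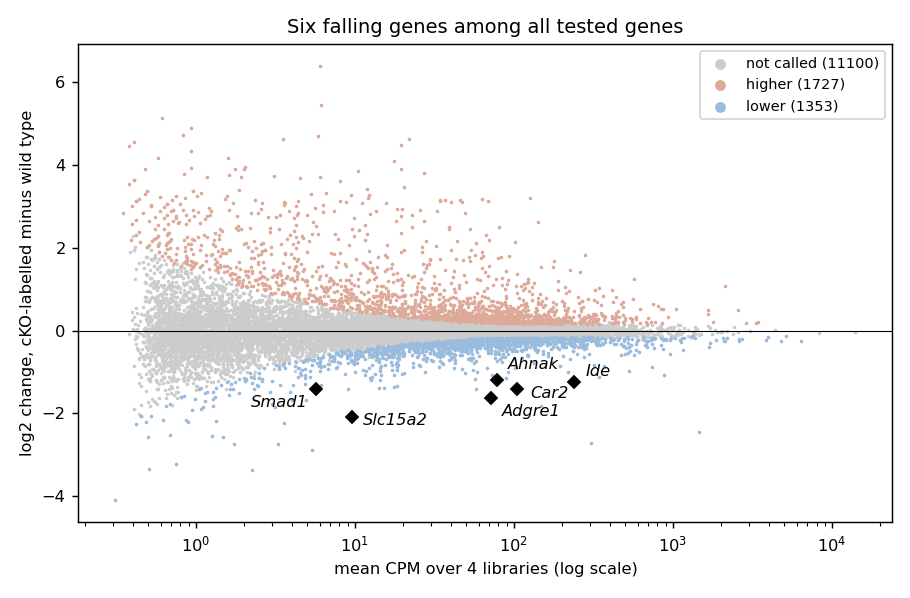
Log2 change between cKO-labelled and wild-type cells (vertical axis) against mean CPM over the 4 libraries (horizontal log axis) for the 14180 tested genes, with genes called higher in red, called lower in blue and the 6 members as black diamonds. From Smad1 on the left to Ide on the right, the members lie near the lower edge of the cloud, between -1.20 and -2.09.

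The genes are also built differently. In GENCODE M21, Ahnak's longest transcript holds 5 exons and 18100 bases, of which a single exon takes 17498 bases. Ide's longest transcript has 24 exons, those of Slc15a2 and Adgre1 have 22 each, Car2's has 7 and Smad1's has 6. No exon base of a member is shared with another annotated gene, so reads of an overlapping or antisense gene on the same exons are not part of these counts as annotated. The table gives 1 count per gene, so the transcripts of a gene, up to 14 for Slc15a2, were not separated.

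RefSeq start windows on GRCm38.p6, 250 bases before to 50 bases after the start, were found for 4 of the 6: Ide, Ahnak, Slc15a2 and Smad1. Those of Slc15a2 (chr16:36784913-36785212, minus strand) and Ahnak (chr19:8989034-8989333, plus strand) are printed 5′ to 3′ along the gene because these genes had the largest and the smallest change of the 6.
Slc15a2: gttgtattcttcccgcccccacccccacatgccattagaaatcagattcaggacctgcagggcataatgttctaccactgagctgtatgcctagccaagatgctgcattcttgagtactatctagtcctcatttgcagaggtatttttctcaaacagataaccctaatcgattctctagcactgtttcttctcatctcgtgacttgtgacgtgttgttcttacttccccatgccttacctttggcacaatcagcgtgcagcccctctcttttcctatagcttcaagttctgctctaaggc
Ahnak: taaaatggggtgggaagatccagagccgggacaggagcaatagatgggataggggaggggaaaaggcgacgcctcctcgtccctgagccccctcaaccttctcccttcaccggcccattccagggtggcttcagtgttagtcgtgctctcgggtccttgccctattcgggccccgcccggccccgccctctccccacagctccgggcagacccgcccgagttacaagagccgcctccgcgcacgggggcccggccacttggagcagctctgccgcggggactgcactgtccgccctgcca
The Slc15a2 window is poor in G and C, with a GC content of 46.3% and 5 CpG dinucleotides, whereas the Ahnak window has a GC content of 67.3% and 22 CpG. Smad1's window (chr8:79399379-79399678, minus strand) resembles Ahnak's, with 65.0% GC and 31 CpG, against a median of 52.7% and 7 CpG over 32851 windows. Ide's window (chr19:37334495-37334794, minus strand) has 44.0% GC and no CpG, but its RefSeq start lies 3308 bases from the nearest GENCODE start, so that window does not cover an annotated GENCODE start.

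These 4 windows were searched on both strands for 7 short motifs. They were the interferon response element core GAAANNGAA (in 8.56% of all windows), the STAT site TTCNNNGAA (8.30%), the NF-kB site GGAANTTCC (0.928%), the BMP-responsive GGCGCC (11.9%), the SMAD box GTCTAGAC (0.213%), the E-box CACGTG (7.15%) and the PU.1 site GAGGAAGT (3.20%). In the windows of Slc15a2, Ahnak and Smad1 none of these letters occurred, which is why the printed sequences hold no capitals. Ide's window held a single match, GAAATTGAA at bases 270 to 278. No motif searched was found in more than 1 of the 4 windows, which says only that these letters are not there.

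Genes around the members were followed by role, from 13 lists that together hold 212 genes of the table other than the members. Of these, 128 were tested, 28 were called higher (21.9%, against 12.2% of all tested genes) and 18 lower (14.1%, against 9.54%), and their median log2 change was 0.03.

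Car2 is 1 of several carbonic anhydrases in the genome, and of 15 other such genes 6 were tested, 2 were called higher (Car13 and Car12) and none lower by edgeR. Without adjustment none was lower at a p under 0.05 either, nor by DESeq2. Car12 stayed under 1 FPKM, and its call was lost by DESeq2 and without wild-type library 1 or 2 or cKO-labelled library 1. Car13, a cytosolic carbonic anhydrase that neighbours Car2, was at 5.10 and 4.42 FPKM in wild type, against 8.39 and 7.30 under the cKO label, a rise of 0.72 ± 0.142 SE on the log2 scale (edgeR adjusted p = 0.000579). Car3, the other relative above 1 FPKM, was not called (log2 change -0.20, edgeR adjusted p = 0.753). Car2 thus went from 62.7 to 23.8 FPKM while Car13 went from 4.76 to 7.85, and Car2 stayed the more abundant of the pair.

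Carbonic anhydrase makes bicarbonate and protons, but not lactate. Among 16 tested genes for the transport of bicarbonate, protons and lactate, 2 were called higher and 5 lower, with a median of -0.18. Bsg, the chaperone of lactate transporters, went from 148.6 to 113 FPKM (log2 change -0.40 ± 0.064 SE, edgeR adjusted p = 5.72e-05). Hvcn1, the voltage-gated proton channel of B cells, went from 83.8 to 66.2 FPKM. Slc16a3, a lactate exporter, was at 21.9 and 22.1 CPM in wild type but at 13.4 and 3.50 under the cKO label (log2 change -1.38, edgeR adjusted p = 0.000722). The Slc16a3 log2 change depended on which cKO-labelled library was read, at -0.72 without library 2 and -2.66 without library 1, and DESeq2 did not call it. Slc16a1, a related lactate transporter, was not called (-0.16, edgeR adjusted p = 0.121), although without cKO-labelled library 1 it was, at -0.28.

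Ide belongs to the M16 metalloproteases, and none of its other 6 genes was called in either direction by edgeR or DESeq2, with 1 lower at an unadjusted p under 0.05. Nrd1, its close relative, was at 28.9 and 29.9 FPKM in wild type, against 30.6 and 29.7 under the cKO label, and the groups overlapped (log2 change 0.03, edgeR adjusted p = 0.769). Pitrm1, a mitochondrial peptidase of the same fold, was likewise not called (-0.07, edgeR adjusted p = 0.497). Of 19 other tested peptide-degrading enzymes 4 were called higher and 3 lower. Dpp4, a surface dipeptidase, went from 14.9 to 19.3 FPKM (log2 change 0.37 ± 0.061 SE, edgeR adjusted p = 8.92e-05), and the aminopeptidases Lnpep and Erap1 went from 18.1 to 22.8 and from 19.9 to 24.0 FPKM. In the insulin and IGF pathway, whose hormone Ide degrades, 2 of 15 tested genes were called higher and 5 lower. Igf2r, which takes IGF2 to lysosomes, fell by 0.46 on the log2 scale (edgeR adjusted p = 6.04e-05), and Irs2, an adaptor of the insulin receptor, rose by 0.63 (edgeR adjusted p = 0.000324).

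Of 10 tested genes of Ahnak's partners, 4 were called higher and 1 lower, with a median of 0.47. Cacnb3, a calcium channel beta subunit, went from 1.86 to 16.5 FPKM (log2 change 3.15 ± 0.108 SE, edgeR adjusted p = 3.20e-16), and Anxa2, which binds Ahnak's tail, went from 2.99 to 11.2 FPKM (1.91 ± 0.114 SE, edgeR adjusted p = 6.76e-12). S100a10, the partner of annexin A2, was abundant and was not called, at 72.3 and 68.2 FPKM (log2 change -0.09, edgeR adjusted p = 0.404). Of 9 tested annexins, which bind membranes in the presence of calcium, 4 were called higher and none lower, and none was lower at an unadjusted p under 0.05 or by DESeq2. Anxa3 rose from 0.475 to 4.74 FPKM. Ahnak2, the paralogue of Ahnak, had between 0 and 5 counts in each library, so no comparison with it was possible.

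Slc15a2's relatives Slc15a3 and Slc15a4, endolysosomal carriers of peptides and histidine, both had higher FPKM than Slc15a2 in every library. Slc15a3 averaged 8.86 FPKM in wild type and 9.38 in cKO-labelled cells (log2 change 0.08, edgeR adjusted p = 0.557). Slc15a4 went from 14.3 to 12.0 FPKM (-0.25 ± 0.070 SE, edgeR adjusted p = 0.0106), a call lost by DESeq2 and without cKO-labelled library 1. Slc15a1 and Slc15a5 had no counts. Of the 8 tested genes of this family and of the sensing of bacterial peptides by NOD proteins, 3 were called higher, Nod2 (0.385 to 0.975 FPKM), Pglyrp2 and Ripk2, and 1 lower, Slc15a4.

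Of 6 other adhesion G protein-coupled receptors tested, the family of Adgre1, edgeR called 3 higher and none lower, and none was lower by DESeq2 or at an unadjusted p under 0.05. Adgre5 (CD97), the family's other abundant member here, was at 21.5 and 20.99 FPKM in wild type, against 23.2 and 23.8 under the cKO label, and was not called (log2 change 0.14, edgeR adjusted p = 0.120). Adgrg6, Adgrl2 and Adgrg1 were called higher from low levels, Adgrg1 from 0.81 to 1.87 FPKM. Adgre4, a near relative of Adgre1, had only 1, 2, 13 and 4 counts and was not tested.

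Of the BMP pathway in which Smad1 acts, only 2 of 22 ligands and antagonists had enough reads to test, and 9 of the 22 had no count in any library. Twsg1, an extracellular BMP modulator, was called lower, from 23.3 to 19.7 FPKM (log2 change -0.25, edgeR adjusted p = 0.00406). The BMP receptor genes Bmpr1a (0.070 and 0.135 FPKM) and Bmpr2 (0.23 and 0.20) were low in wild type and in cKO-labelled cells. Of 10 tested BMP and TGF-beta receptors edgeR called Tgfbr1 higher (0.28, edgeR adjusted p = 0.0282; lost by DESeq2 and without wild-type library 1 or 2 or cKO-labelled library 1) and none lower, with 2 lower at an unadjusted p under 0.05 and none by DESeq2. Tgfbr2, the TGF-beta receptor, was at 22.3 and 21.3 FPKM and was not called (-0.07, edgeR adjusted p = 0.496). Smad5, which shares Smad1's role, was at 4.75 and 5.17 FPKM (log2 change 0.12, edgeR adjusted p = 0.385), and so exceeded Smad1 in both groups. Smad9, the remaining SMAD of that class, had no counts.

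Of 17 tested SMADs and regulators of SMADs other than Smad1, 2 were called higher and 1 lower. Smad7, an inhibitory SMAD, rose from 2.70 to 4.18 FPKM (log2 change 0.63 ± 0.135 SE, edgeR adjusted p = 0.00145), and Skil, a corepressor, rose by 0.30. Ski, a related corepressor, was called lower (-0.41, edgeR adjusted p = 0.0345), but the call was lost when any library was left out and by DESeq2. Among 7 tested BMP target genes 3 were called higher and 1 lower, and Smad7, already counted among the SMADs, is 1 of the 3. The ID genes, which block E proteins, went opposite ways. Runx2, a transcription factor of bone and immune cells, rose from 4 and 4 counts to 52 and 55. Id2 rose from 3.37 to 12.7 FPKM (edgeR adjusted p = 6.78e-11), and Id3 fell from 53.6 to 36.3 FPKM (-0.56 ± 0.063 SE, edgeR adjusted p = 3.60e-07).

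**Figure D3:**
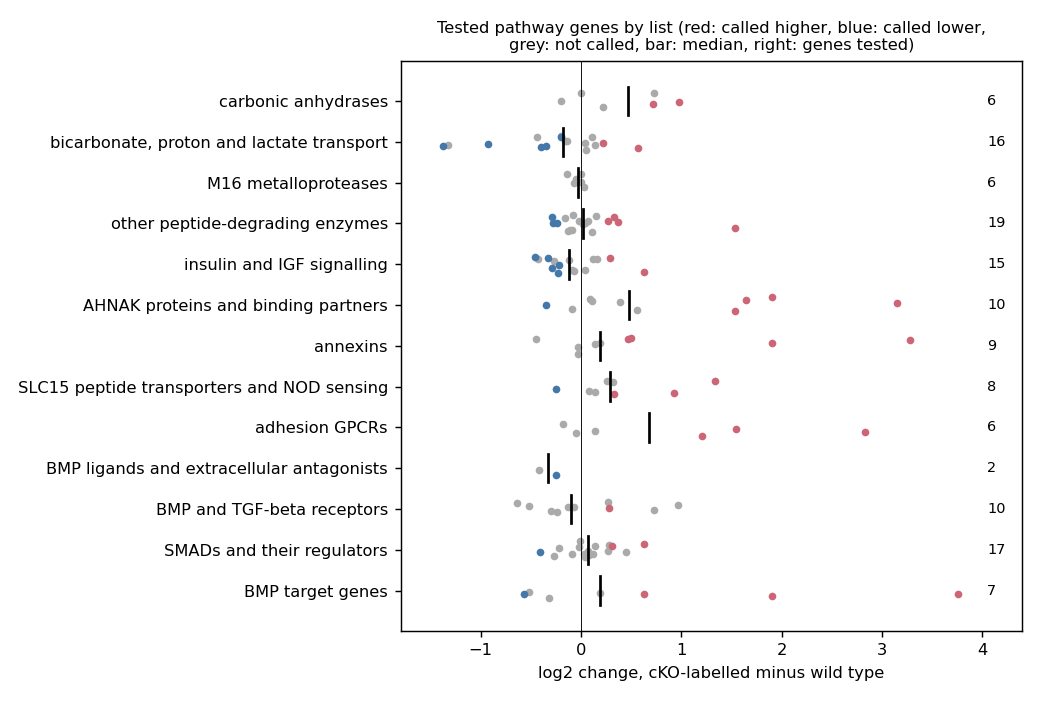
Log2 change between cKO-labelled and wild-type cells for the tested genes of each pathway list (rows), with 1 point per gene (red called higher, blue called lower, grey not called), a bar at the list's median and the number of tested genes on the right. The medians run from -0.33 for BMP ligands and antagonists to 0.67 for adhesion receptors, and Cacnb3 stands at 3.15 among Ahnak's partners. The -0.33 rests on only 2 tested genes, Twsg1 and Fstl1, and Fstl1 had 10, 8, 13 and 0 counts. The members themselves are not drawn.

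Several members are also known from other cells, and markers of those cells were read beside them. Adgre1 marks macrophages, and of 20 other macrophage genes 11 were tested, 3 were called higher and none lower, with none lower by DESeq2 and 1 at an unadjusted p under 0.05. Of those 3, Spic and Vcam1 had 56 counts or fewer in each library and lost their calls by DESeq2 and without cKO-labelled library 2, among others. Their summed level was 177 and 195 CPM in wild type, against 303 and 341 CPM under the cKO label, the opposite direction to Adgre1, and most of it was Axl (139 and 157 against 259 and 299 CPM). Some macrophage genes had few counts, with 26, 14, 21 and 5 for Csf1r and 8, 7, 2 and 5 for C1qa. Siglec1 had 1, 0, 1 and 0 and Timd4 0, 0, 2 and 0, where Adgre1 had 1909, 2115, 545 and 704. Others had more, such as Hmox1 with 235, 273, 320 and 304 counts. Adgre1 also occurs on eosinophils, whose 3 tested markers were all called higher, although each lost its call without 1 library or more (Siglecf without cKO-labelled library 2, Prg2 without wild-type library 1 or cKO-labelled library 1, Il5ra without wild-type library 1 or cKO-labelled library 2). Eosinophil markers summed to 50.8 and 56.2 CPM in wild type, against 62.9 and 71.6 CPM under the cKO label. Nearly all of that sum was Il5ra (49.2 and 54.7, then 58.0 and 65.5 CPM). Siglecf had only 22, 15, 47 and 73 counts and Prg2 only 2, 12, 41 and 26. Epx, another eosinophil gene of the list, had no counts in any library. The parts of macrophages and of eosinophils in the Adgre1 result were not tested.

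Car2 is abundant in red cells and their precursors. Of 12 erythroid genes 4 were tested and 2 called higher, Hbb-bs and Hba-a1, the second of them not when any library was left out. The 12 genes summed to 1.97 and 2.19 CPM in wild type, against 5.44 and 5.21 CPM under the cKO label, and Car1 and Rhag had no counts. The part of erythroid cells in the Car2 result was not tested. Smad1 and Ahnak are well expressed in stromal cells, whose 10 markers summed to 66.5 and 67.2 CPM in wild type, against 79.9 and 70.5 CPM under the cKO label. Most of that sum was Pecam1 (59.8 and 61.5, then 75.0 and 68.5 CPM). The other 9 summed to 6.62 and 5.70 CPM in wild type, against 4.94 and 2.01 CPM under the cKO label. The 5 tested had a median log2 change of -0.85, the same direction as Smad1 and Ahnak, and Dcn had the lowest (-1.43, not called, edgeR adjusted p = 0.0540). The part of stromal cells in the results of Smad1 and Ahnak was not tested. Of 5 stromal genes tested edgeR called 1 higher, Pecam1, whose call was lost by DESeq2 and without wild-type library 1 or 2 or cKO-labelled library 1, and none lower. Dendritic-cell markers, of which 4 of 6 tested were called higher and none lower by edgeR, by DESeq2 or at an unadjusted p under 0.05, summed to 60.8 and 59.5, then 115 and 121 CPM. At an unadjusted p under 0.05, 1 stromal gene was lower, Dcn, and DESeq2 called none.

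Some B-cell genes were lower as well. Of 10 B-cell markers, all tested, 2 were called higher and 5 lower, among them Cd79a (log2 change -0.34 ± 0.054 SE, edgeR adjusted p = 4.51e-05), while Ms4a1 (CD20) was not called at 131 and 142 FPKM. Of 12 markers of B-1 and marginal zone B cells 6 were called higher and 4 lower. Those with the smallest adjusted p, Plac8, Cd36 and Bhlhe41, were among the higher. Over all tested genes 12.2% were called higher and 9.54% lower, the shares to set beside every marker list here. In bulk RNA a smaller share of cells with a gene on and less RNA of it per cell cannot be told apart, and the part of B-cell subsets in the members' fall was not tested.

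**Figure D4:**
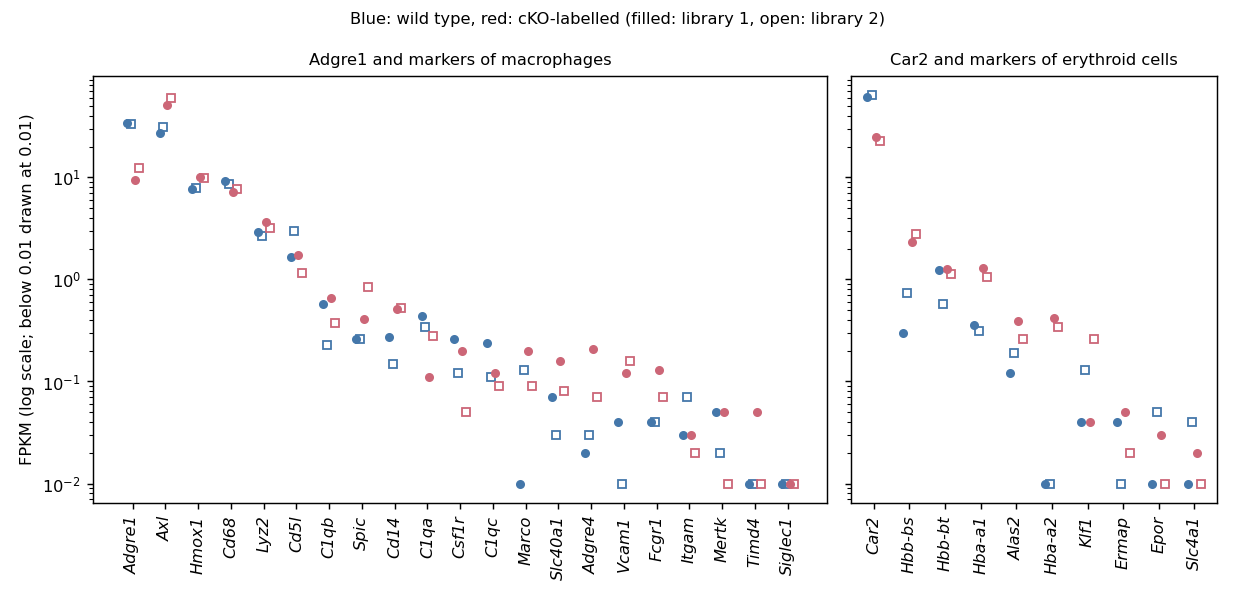
FPKM (log axis, values below 0.01 drawn at 0.01) of Adgre1 with 20 macrophage genes (left) and of Car2 with the erythroid genes that had any FPKM above 0 (right), in wild-type (blue) and cKO-labelled (red) libraries 1 (filled) and 2 (open). Adgre1 and Car2 are lower in red than in blue, Axl is higher in red, and Siglec1, another macrophage gene, lies at the bottom in all 4 libraries.

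Genes lying next to the members were compared in turn. Within 250 kb of a member, 58 neighbours were tested, of which 7 were called higher and 7 lower, or 24.1% in all against 21.7% of all tested genes. Around Ide, Kif11, a mitotic kinesin whose start lies 38.6 kb away, rose from 154 and 152 CPM to 221 and 212 (edgeR adjusted p = 6.55e-07), and Marchf5, a mitochondrial ubiquitin ligase, rose by 0.48 on the log2 scale. Hhex, a homeobox factor of B-cell and blood development on Ide's other flank than Marchf5, stood at 36.6 and 34.9 CPM, then 24.8 and 26.5 CPM (log2 change -0.48 ± 0.096 SE, edgeR adjusted p = 0.000653). Around Slc15a2, Cd86, a costimulatory ligand, was at 46.1 and 48.3 CPM in wild type, against 98.0 and 104 under the cKO label (1.09 ± 0.067 SE, edgeR adjusted p = 1.12e-11), so a gene that rose lies 84.1 kb from the gene with the largest change of the 6. Polq, a DNA repair polymerase there, rose by 0.32.

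Beside Adgre1, Cd70, a ligand of CD27, rose (0.74 ± 0.130 SE, edgeR adjusted p = 0.000170), and Trip10, Vav1 and Gpr108 were called lower. Trip10 fell by 0.48 on the log2 scale, while Vav1 (-0.21) lost its call without wild-type library 2 or cKO-labelled library 2, and Gpr108 (-0.26) by DESeq2 and without either wild-type library or cKO-labelled library 1. C3, a complement gene near Adgre1 chosen after its values were seen, was not called (46.7 and 40.5 CPM, then 41.6 and 15.4 CPM). Ahnak lies in a dense region with 29 tested neighbours, of which 1 was called higher (Ttc9c) and 3 lower (Bscl2, Ganab and Tut1). Bscl2, the seipin gene, fell by 0.58 on the log2 scale, whereas Ttc9c (0.20), Ganab (-0.19) and Tut1 (-0.19) lost their calls without wild-type library 1 or 2 or cKO-labelled library 1, and Tut1 also without cKO-labelled library 2. DESeq2 called neither Ttc9c nor Tut1. Around Smad1 none of 4 tested neighbours was called by edgeR or DESeq2 or had an unadjusted p under 0.05. Near Car2 1 of 2 tested was called, the Car13 already described.

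**Figure D5:**
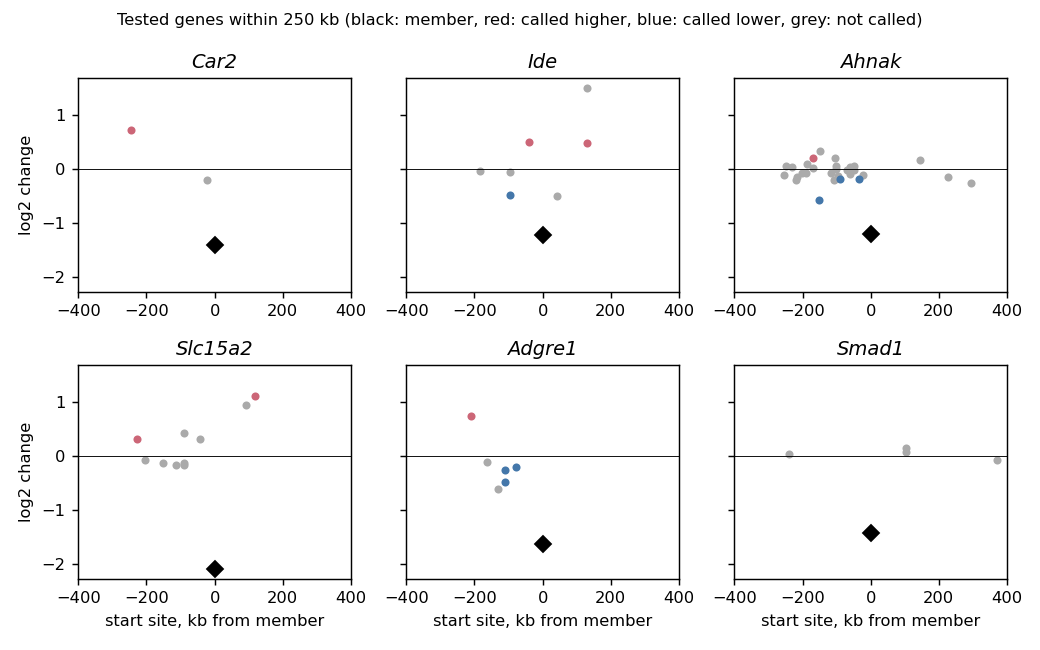
Log2 change between cKO-labelled and wild-type cells (vertical axis) against the distance of its start from the member's start in kb (horizontal axis, negative upstream) for the 6 members (black diamonds) and the tested genes within 250 kb of each (red called higher, blue called lower, grey not called). The members lie at distance 0 between -1.20 and -2.09, below every neighbour in their panels, and Cd86 stands at 1.09 beside Slc15a2.

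Finally, the genes whose levels over the 4 libraries were most like each member's were found by the Euclidean distance between centred log2 CPM values. The search held 9438 genes whose mean reached 5 CPM, passing over predicted genes, pseudogenes and immunoglobulin segments. With 4 libraries in 2 groups, such a distance mostly reflects the size of the fall. Sbk1, which encodes an SH3-domain-binding kinase, was nearest to Smad1 (distance 0.0743) and to Car2 (0.0704), at 83.3 and 84.6 CPM in wild type, against 31.9 and 30.9 under the cKO label. Camkk1, a kinase that activates calmodulin-dependent kinases, was nearest to Ide (0.121), followed by Extl1 and Itgb7. Ptprs, a receptor tyrosine phosphatase, was nearest to Ahnak (0.0931), followed by Ksr2 and Csrp2. The nearest gene to Slc15a2 was Adgre1, at a distance of 0.549, and the nearest to Adgre1 was Smad1 at 0.391, so these members had more distant matches than the other 4. Among the members themselves Smad1 and Car2 were closest (0.112) and Slc15a2 and Ahnak farthest apart (0.913).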

How the data were processed

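The deposited table holds, per the file headers, whole-number read counts per gene and FPKM values, on GRCm38. Per the submitters' processing notes the authors used bcl2fastq 2.17.1.14, cutadapt 1.9.1, HISAT2 2.0.1 and HTSeq 0.6.1; the sources used here give no settings, strand mode or annotation release. Deposited FPKM served only for levels, and were recomputed from the counts to within 0.005. Counts were fitted on all 4 libraries by edgeR 4.0.16 under R 4.3.3 (TMM; filterByExpr with a minimum count of 10 and total of 15; quasi-likelihood test; Benjamini-Hochberg adjusted p under 0.05), after the script was tested on simulated data. CPM use TMM-scaled totals. Lowly counted genes carry more counting error relative to their level. DESeq2 1.42.0, other scalings, no filter, no ribosomal RNA rows, a replicate block and each library left out were alternatives. Gene structure came from GENCODE M21 (99.53% of rows matched), start windows from RefSeq. Same-genotype libraries differed by more than sampling noise (median chi-square per gene 1.27 and 1.41, against 0.455), and each was counted as 1 replicate. Technical libraries can differ in this way too, so the chi-square does not show that they came from separate mice.

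The members and lists were chosen with earlier results of these data known. The text names Adar, the members, up to 3 called genes of smallest adjusted p and the most abundant uncalled gene per list, called neighbours within 250 kb, the 3 nearest genes by pattern (passing over predicted genes, pseudogenes and immunoglobulin segments), and paralogues with at least 1 FPKM. Other genes named were chosen after their values were seen. Some genes of the marker lists are not reported here.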

Additional observations from a re-analysis of the deposited data

How the results depend on the processing

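The 6 members stayed lower in the cKO-labelled libraries under every alternative run. With a library left out the log2 change ranged from -1.48 to -1.33 for Car2, -1.27 to -1.20 for Ide, -1.29 to -1.11 for Ahnak, -2.14 to -2.06 for Slc15a2, -1.85 to -1.44 for Adgre1 and -1.48 to -1.36 for Smad1. Over the same runs 1293 to 1469 genes were called higher and 984 to 1252 lower, 22 to 25 pathway genes higher and 14 to 16 lower, and 6 to 8 neighbours higher and 4 to 7 lower, the 4 without wild-type library 2. DESeq2 called 1118 genes higher and 740 lower, and 11 pathway genes lower. A window of 100 kb held 3 neighbours called higher, and one of 500 kb held 11 called lower. A replicate block gave 1904 genes higher and 1594 lower, 28 and 20 pathway genes, and 8 and 8 neighbours, and moved no member by more than 0.01. The labels do not say that the numbers pair libraries, and same-numbered libraries did not deviate together (correlation -0.03). Of 926 values recomputed for 93 other named genes, 862 kept direction and call, 59 lost the call, 5 gained it and none reversed. Smad1 and Slc15a2, with 54 to 66 counts in cKO-labelled libraries, are limited most by depth.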

Other observations

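Among genes of at least 5 CPM, the member with the largest fall, Slc15a2, was exceeded only by Ly6k, which encodes a GPI-anchored protein of the Ly6 family (11.3 and 7.78 CPM in wild type, against 1.05 and 1.49 under the cKO label, log2 change -2.89), and by Gm23935 and CT010467.1, rows that were high in wild-type library 2. In several other genes with large falls the cKO-labelled libraries lay far apart. Ak4, a mitochondrial adenylate kinase, was at 7.66 CPM in cKO-labelled library 1 and 2.29 in library 2, and Slc16a3 at 13.4 and 3.50 CPM. Aldoc, a glycolytic aldolase, was at 10.8 and 4.87 CPM there. Bnip3, a mitophagy receptor, was at 19.7 and 20.5 CPM in wild type, then 11.3 and 6.07 CPM. These genes were lower in cKO-labelled library 2 than in library 1, as was the lactate exporter Slc16a3. Of the members, Car2, Ide, Slc15a2 and Smad1 were also lower in library 2, with log2 differences from library 1 between -0.14 and -0.01, and Adgre1 and Ahnak were higher there. These genes were chosen after their values were seen, and the difference between libraries was not tested.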
